A study of Mus musculus with 620 samples.

Results

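Clec7a, Itgax, Axl, Cst7, Ch25h and Lgals3 are 6 genes that microglia and other macrophages raise when they become activated. They were taken by symbol from 3 gene count tables of mouse tissues, and all 6 were found among the 24850 genes of the long-term table and among the 40840 genes of the short-term and of the young-adult table. The genes were selected on their CPM (counts per 1000000 counted reads) in these same libraries, with earlier results known, and which comparison weighed in that choice is not recorded. Their levels and calls are therefore a description of chosen genes, and a call says only that the gene passed the test run over all genes.

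The study measured polyadenylated RNA in 620 bulk libraries from 72 mice and 12 tissues, and 182 of the libraries are from the brain. In the long-term cohort (LT), young controls (8 mice), aged controls (9 mice) and aged mice given exenatide (8 mice) were profiled in hypothalamus, hippocampus and frontal cortex, with 8 aged controls in frontal cortex. In the short-term cohort (ST), 5 mice per group were profiled in hippocampus and frontal cortex: young controls, aged controls, aged mice given exenatide, aged mice given rapamycin, aged mice with hypothalamic knockdown of GLP-1R, and aged knockdown mice given exenatide. In the young-adult cohort (YA), 8 controls and 8 exenatide-treated mice were profiled in all 3 brain regions. Exenatide, a peptide drug, activates GLP-1R, the receptor for the gut hormone glucagon-like peptide 1, and rapamycin inhibits the kinase mTOR. Strain, sex, ages, doses, length of treatment and the vector of the knockdown are not given in the sources used here. No ST hypothalamus library was analysed here, so the knockdown could not be checked in the region it targeted. Library totals ran from 15190156 to 33786473 counts in LT, 14643153 to 56204841 in ST and 14980061 to 34148943 in YA.

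Microglia are the resident macrophages of the brain. In the healthy adult they express a set of homeostatic genes that includes the purinergic receptor P2ry12 and the surface protein Tmem119. In ageing white matter, around amyloid plaques and after demyelination, some of them shift to an activated state, which depends in part on the lipid receptor Trem2 and its adaptor Tyrobp, and express lysosomal, lectin and integrin genes. Clec7a (dectin-1) is a C-type lectin receptor for beta-glucans that signals through the kinase Syk and the adaptor Card9. Itgax is the integrin subunit alpha X (CD11c), which pairs with the beta 2 subunit Itgb2. Axl is a receptor tyrosine kinase of the TAM family that binds Gas6 and takes part in the uptake of dying cells. Cst7 (cystatin F) inhibits cathepsins inside lysosomes, Ch25h makes 25-hydroxycholesterol from cholesterol, and Lgals3 (galectin-3) binds beta-galactosides and is recruited to damaged lysosomes. In bulk tissue, fewer cells of a type and less RNA per cell cannot be told apart.

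The promoters of 4 of the genes are shown because the first 3 genes had the age differences reported here and Axl did not. Each runs from 250 bases before to 50 bases after the annotated start, 5′ to 3′ on the gene's strand, from RefSeq (GRCm38.p6). The windows are Clec7a chr6:129472730-129473029 on the minus strand, Cst7 chr2:150570165-150570464 on the plus strand, Itgax chr7:128129300-128129599 on the plus strand and Axl chr7:25788684-25788983 on the minus strand. Capitals mark the AP-1 motif TGANTCA. 4 motifs were searched on both strands: TGANTCA, which 7.81% of 32851 mouse promoters of this length hold, the PU.1-like GAGGAAGT (3.20%), the E-box CACGTG (7.15%) and an interferon response-like motif (3.44%). The Itgax window holds the AP-1 letters TGAGTCA starting 56 bases before the start, and the Cst7 window holds TGATTCA starting 6 bases before it. None of the 4 motifs was found in the Clec7a, Axl, Ch25h or Lgals3 windows, which says only that these letters are not there.
Clec7a: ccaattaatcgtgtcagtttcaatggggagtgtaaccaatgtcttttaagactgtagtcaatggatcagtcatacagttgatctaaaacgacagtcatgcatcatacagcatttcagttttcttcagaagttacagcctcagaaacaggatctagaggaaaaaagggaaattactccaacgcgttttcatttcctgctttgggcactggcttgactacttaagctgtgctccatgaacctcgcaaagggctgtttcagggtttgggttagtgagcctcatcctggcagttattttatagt
Cst7: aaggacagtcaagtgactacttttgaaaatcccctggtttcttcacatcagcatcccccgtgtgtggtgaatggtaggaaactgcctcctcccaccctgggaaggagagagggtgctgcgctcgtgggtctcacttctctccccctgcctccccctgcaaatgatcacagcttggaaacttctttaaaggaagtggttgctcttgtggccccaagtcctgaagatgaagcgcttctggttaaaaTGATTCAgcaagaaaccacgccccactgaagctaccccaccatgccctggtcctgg
Itgax: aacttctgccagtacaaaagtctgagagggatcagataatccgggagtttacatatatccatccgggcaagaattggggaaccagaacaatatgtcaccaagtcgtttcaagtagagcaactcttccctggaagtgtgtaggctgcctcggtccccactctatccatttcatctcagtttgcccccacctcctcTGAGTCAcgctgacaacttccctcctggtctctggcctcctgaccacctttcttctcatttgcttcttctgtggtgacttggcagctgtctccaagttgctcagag
Axl: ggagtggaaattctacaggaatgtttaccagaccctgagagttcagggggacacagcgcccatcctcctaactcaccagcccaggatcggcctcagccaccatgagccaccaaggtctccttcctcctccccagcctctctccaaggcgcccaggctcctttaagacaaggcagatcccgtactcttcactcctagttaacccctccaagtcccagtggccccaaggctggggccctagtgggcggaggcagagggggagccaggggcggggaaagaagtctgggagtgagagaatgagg

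Clec7a, Cst7 and Itgax were higher in aged than in young ST mice in both brain regions examined, by 3.05-fold to 8.21-fold, while Axl, Ch25h and Lgals3 did not pass the test in either region. In the hippocampus Clec7a read 0.251, 0.302, 0.328, 0.627 and 0.688 CPM in the 5 young mice and 1.64, 2.05, 2.11, 2.44 and 6.44 CPM in the 5 aged mice. Every aged library lay above every young one, and the highest, from mouse E13, stood well apart from the other 4. Clec7a rose by 2.73 ± 0.46 on the log2 scale (SE; adjusted p = 6.55e-05, edgeR quasi-likelihood test with Benjamini-Hochberg adjustment over 18586 genes). Cst7 read 0.0232, 0.0437, 0.146, 0.153 and 0.292 CPM in young and 0.315, 0.566, 0.82, 0.866 and 2.35 CPM in aged hippocampus. The groups did not overlap here either, and E13 was again the highest. Cst7 rose by 3.04 ± 0.61 (adjusted p = 4.35e-04, edgeR). Itgax read 0.279, 0.306, 0.42, 0.46 and 0.46 CPM in young and 0.828, 1.02, 1.09, 1.73 and 3.93 CPM in aged hippocampus. It rose by 2.17 ± 0.46 (adjusted p = 8.40e-04, edgeR), again without overlap and with E13 on top. So 3 of the 6 genes passed in the hippocampus, where 26% of all genes tested did. Depth differed between these groups, with a median library total of 43200900 counts in young and 24063300 in aged mice. Its part in the differences was not tested.

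In the ST frontal cortex the same 3 genes passed, where 5.56% of 18227 genes did. Clec7a read 0.204, 0.229, 0.389, 0.516 and 0.625 CPM in young and 1.12, 1.35, 1.61, 1.88 and 2.62 CPM in aged mice. The groups did not overlap, and Clec7a rose by 2.11 ± 0.33 (adjusted p = 2.91e-04, edgeR). Itgax read 0.312, 0.326, 0.389, 0.42 and 0.437 CPM in young and 0.5, 0.506, 0.74, 1.8 and 2.28 CPM in aged cortex. All 5 aged libraries lay above the young ones, 3 of them by little, and the rise of 1.61 ± 0.39 (adjusted p = 0.0118, edgeR) was 1.22 with adjusted p = 0.0735 without E13. Cst7 was counted in few reads, with 0, 0, 0.0815, 0.115 and 0.156 CPM in young and 0.077, 0.305, 0.387, 0.409 and 0.844 CPM in aged cortex. The lowest aged library lay inside the young range. The rise of Cst7 was 2.42 ± 0.65 (adjusted p = 0.0223, edgeR), and the call was lost when any of A43, A46 or E30 was left out.

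Axl was the most abundant of the 6 genes in the brain and differed least with age. In ST hippocampus it read 52.4 to 56.8 CPM in young and 50.5 to 61 CPM in aged mice, a difference of 0.12 ± 0.07 (adjusted p = 0.184, edgeR). In ST frontal cortex it read 52.4 to 64.9 CPM in young and 53.2 to 58.1 CPM in aged mice, a difference of -0.01 (95% interval -0.18 to 0.16). The interval in the cortex excludes a change as large as that of Clec7a, Cst7 or Itgax. Ch25h read 0.109 to 0.79 CPM in young and 0.157 to 2.52 CPM in aged hippocampus, a difference of 1.33 ± 0.68 (adjusted p = 0.156, edgeR). A single aged library, E30, lay above all young ones. Lgals3 read 0.568 to 2.87 CPM in young and 0.527 to 1.78 CPM in aged hippocampus, a difference of -0.15 ± 0.35 (adjusted p = 0.797, edgeR). In frontal cortex the differences were -0.15 ± 0.56 for Ch25h and 0.82 ± 0.62 for Lgals3, neither of which passed.

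**Figure D1:**
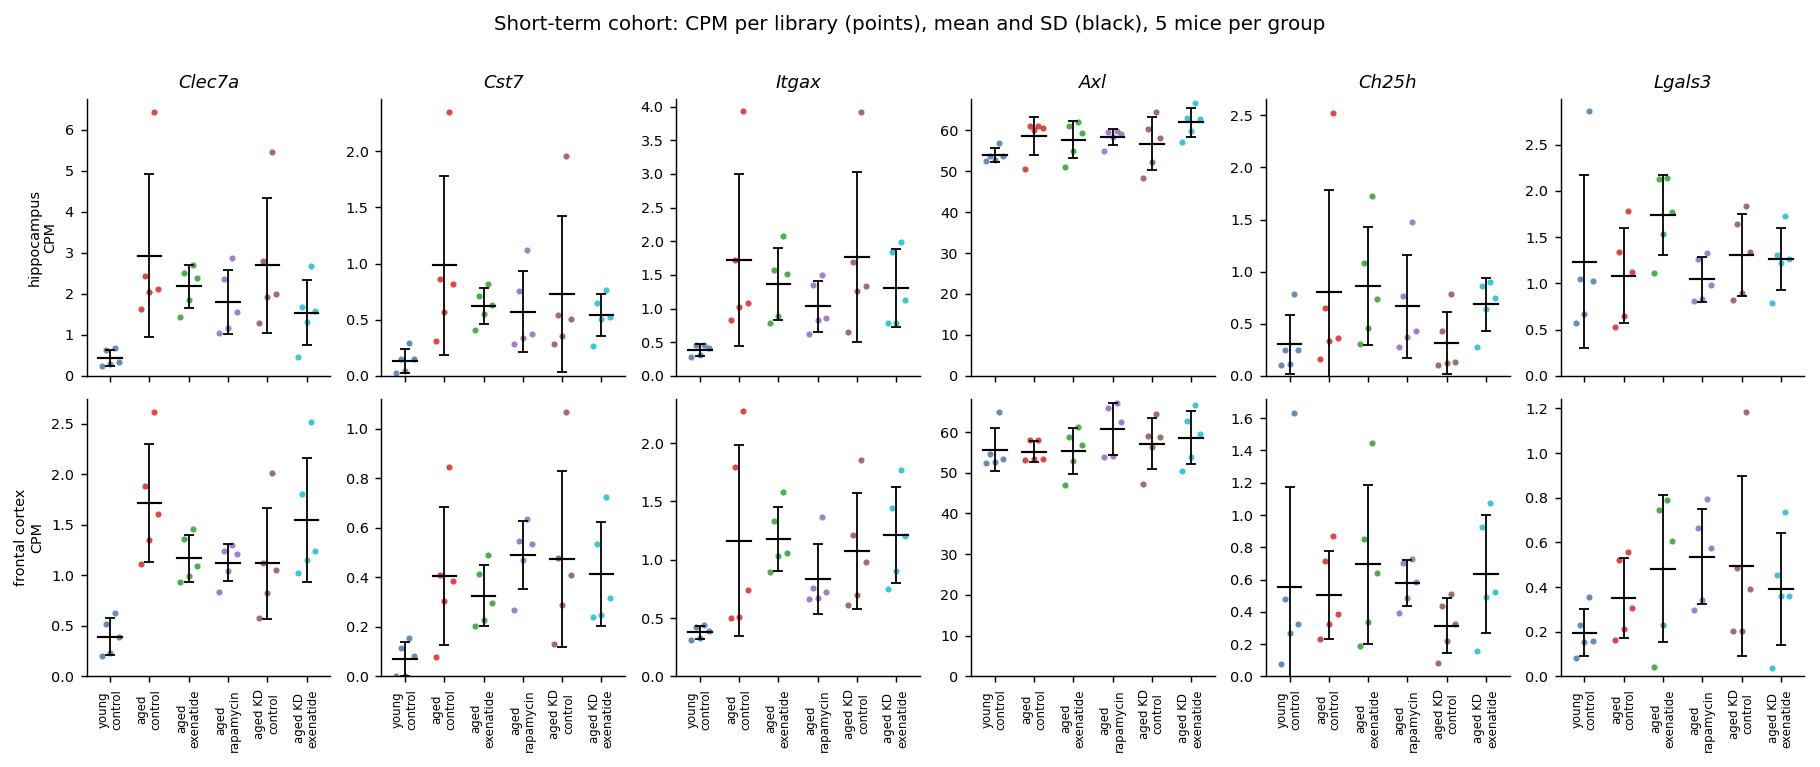
CPM (linear axes from 0) of the 6 genes in every ST hippocampus and frontal cortex library, by group, with the mean and SD in black. Aged controls lie above young controls for Clec7a and Itgax in both regions and for Cst7 in hippocampus, with mouse E13 highest at 6.44 CPM of Clec7a, and the treated and knockdown groups overlap the aged controls.

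Signs of other cell types moved with age in the same ST hippocampus libraries. The summed level of the 10 choroid plexus genes ran from 76.7 to 12051 CPM in young and from 56.8 to 405 CPM in aged mice, and all 10 fell with age (median log2 difference -3.91, against -0.00 over all genes). The 2 young libraries over 1000 CPM were A46 and A47. Without them Clec7a still rose by 2.80 (adjusted p = 9.91e-04), Cst7 by 2.77 (adjusted p = 0.00672) and Itgax by 2.09 (adjusted p = 0.0103, edgeR), an alternative chosen after seeing the data. The 10 blood monocytes and neutrophils genes summed to 0.71 to 1.99 CPM in young and 1.97 to 12.1 CPM in aged hippocampus, and 3 of the 5 that passed the filter on low counts rose. The 12 homeostatic microglia genes summed to 445 to 488 CPM in young and 589 to 748 CPM in aged hippocampus, with no overlap. The part of the blood and homeostatic microglia signals in the 3 rises was not tested, except that the member was also set against the homeostatic genes below.

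In the LT cohort, whose groups are larger, the age difference passed for Itgax alone. Itgax in hypothalamus read 0.073 to 0.51 CPM (median 0.12) in 8 young mice and 0.429 to 4.36 CPM (median 0.719) in 9 aged mice. Of the 9 aged libraries 7 lay above every young one, and mouse B19 was far above the other aged mice. Itgax rose by 2.21 ± 0.52 there (adjusted p = 0.0159, edgeR, 7.09% of 18007 genes called). In frontal cortex Itgax read 0.124 to 0.698 CPM (median 0.354) in young and 0.479 to 1.64 CPM (median 0.7) in aged mice. The ranges overlapped, with 4 of 8 aged libraries above all young ones, and the rise was 1.11 ± 0.31 (adjusted p = 0.0324, edgeR, 5.74% of 17688 genes called). In hippocampus Itgax differed by 1.28 ± 0.72 (adjusted p = 0.696), and none of the 6 genes passed there, where only 0.403% of 17601 genes did.

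The labels number RNA-seq batches, and the LT brain libraries fall in batches 1 and 3. Within batch 3 alone the Itgax difference with age was 3.72 in hypothalamus and 1.23 in frontal cortex, and within batch 1 it was 1.26 and 1.03. None of these 4 values passed on its own, each resting on 3 to 5 mice per group. The hypothalamus call was lost without young mouse A53, and without B19 and exenatide-treated mouse B26 together the rise was 1.60 (adjusted p = 0.00982). The frontal cortex call was lost when any of 7 single mice was left out, and without B19 the rise was 0.99 (adjusted p = 0.0639).

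Clec7a was higher in aged than in young LT mice in each region without passing the test. In hypothalamus it read 0.2 to 1.75 CPM (median 0.436) in young and 0.454 to 5.85 CPM (median 0.898) in aged mice, a difference of 1.26 ± 0.55 (adjusted p = 0.135, edgeR). In hippocampus it read 0.142 to 1.71 CPM (median 0.193) in young and 0.417 to 2.38 CPM (median 1.1) in aged mice, a difference of 1.36 ± 0.63 (adjusted p = 0.570, edgeR). In frontal cortex it read 0.0824 to 0.998 CPM (median 0.302) in young and 0.359 to 1.18 CPM (median 0.795) in aged mice, a difference of 0.98 ± 0.39 (adjusted p = 0.135, edgeR). The ranges overlapped in all 3 regions, and a single young mouse was highest in each of hypothalamus (A57) and hippocampus (A53). Within batches the hypothalamus difference was 2.89 in batch 3 and 0.22 in batch 1.

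Cst7 did not pass the filter on low counts in any LT brain region and was not tested. Its levels were 0 to 0.2 CPM in young and 0.0757 to 3.55 CPM in aged hypothalamus, 0 to 0.29 and 0.0747 to 0.794 CPM in hippocampus, and 0 to 0.308 and 0.0371 to 1.17 CPM in frontal cortex. B19 held the highest aged value in all 3 regions. Lgals3 differed with age by 1.04 ± 0.34 in frontal cortex (adjusted p = 0.0675, edgeR), where it read 0.0824 to 0.592 CPM (median 0.375) in young and 0.28 to 1.22 CPM (median 0.695) in aged mice. In hypothalamus Lgals3 reached 10.96 CPM in B19 against at most 1.88 CPM in young mice, a difference of 1.04 ± 0.54 (adjusted p = 0.201, edgeR). Ch25h differed by 0.28 to 0.43 and Axl by -0.06 to 0.06 across the 3 regions, and neither passed in any of them.

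**Figure D2:**
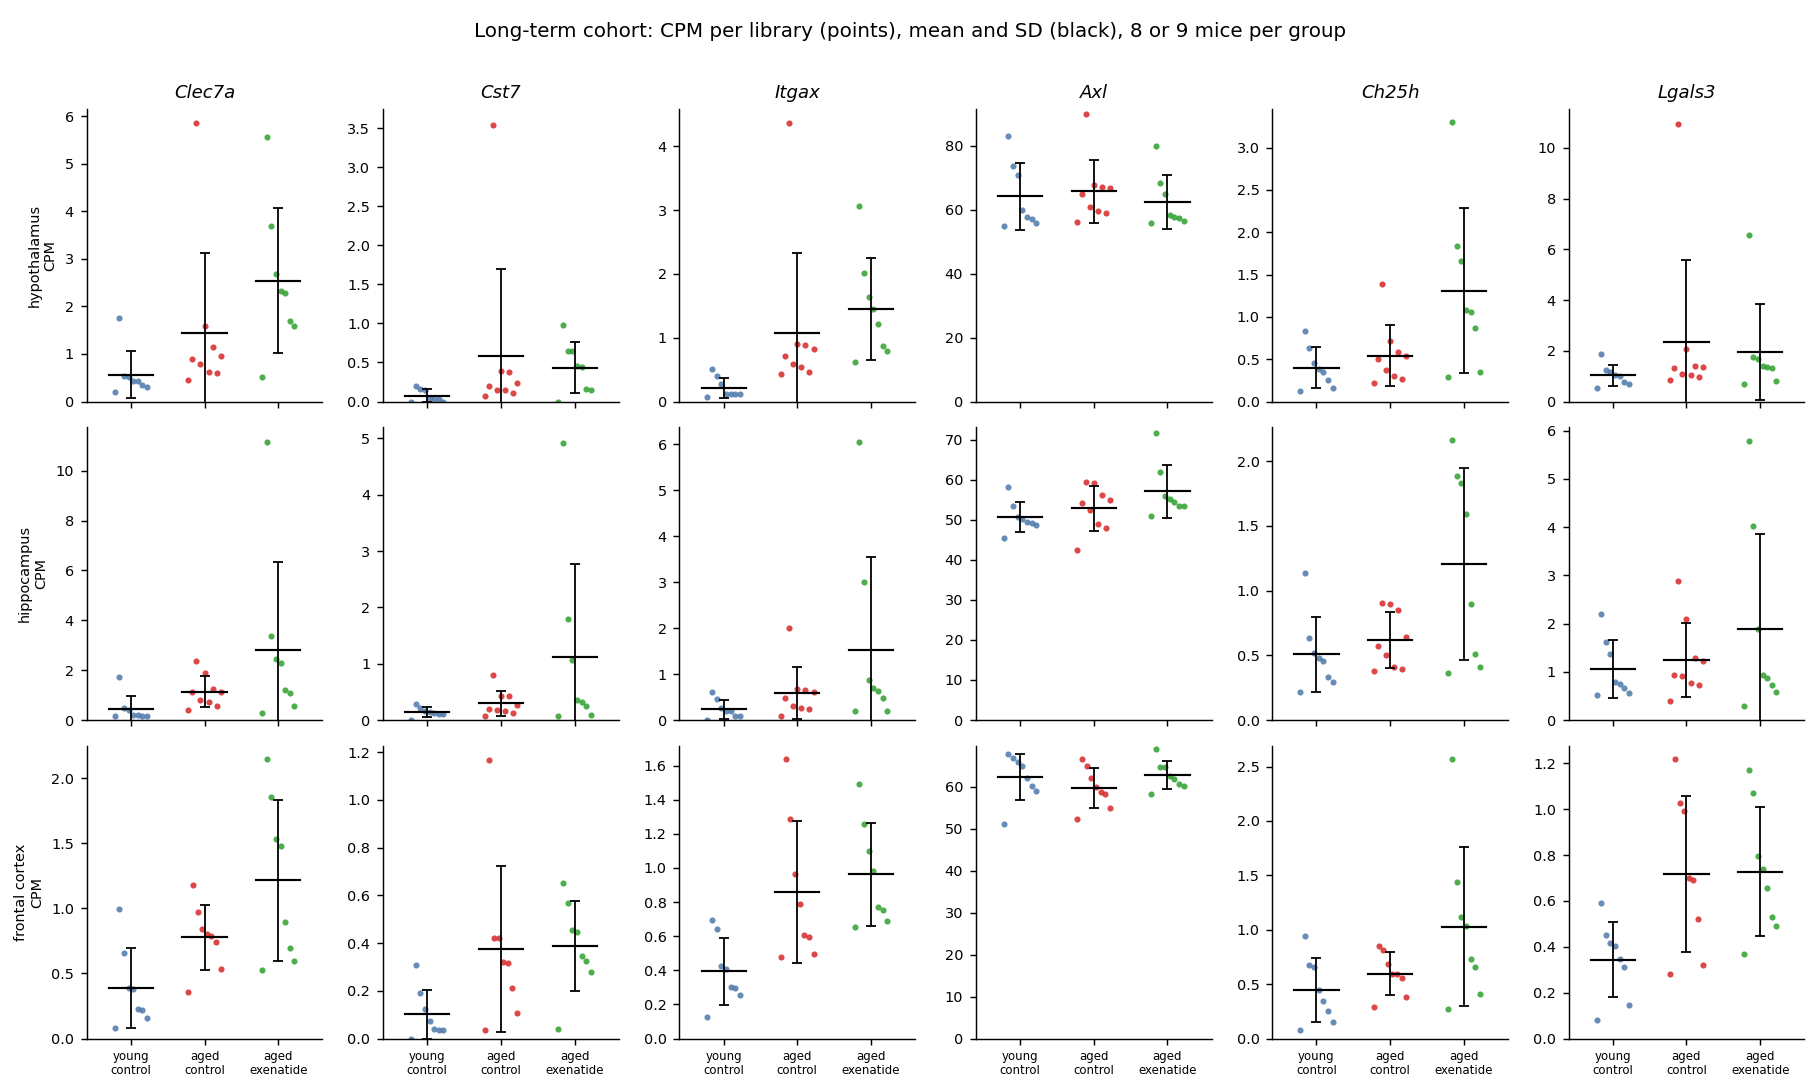
CPM (linear axes from 0) of the 6 genes in every LT library of hypothalamus, hippocampus and frontal cortex, by group, with the mean and SD in black. Aged control B19 is the highest point of its group for all 6 genes in hypothalamus (Clec7a 5.85 CPM), and exenatide-treated B26 stands apart in hippocampus (Clec7a 11.2 CPM).

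For mice B19, B26 and E13, picked after their values were seen, summed levels of 27 gene lists were compared with those of their group. Some lists on which each was highest are given here, in a single region each. Other lists and regions are not given, and of the other mice that stood apart only A84 was examined this way. In hypothalamus B19 was the highest aged control for the homeostatic microglia genes (482 CPM against 337 to 378 in the others), for border macrophages (48.9 against 17.04 to 29.7), for meninges and fibroblasts (259 against 46.6 to 87.1) and for blood monocytes and neutrophils (8.02 against 0.73 to 3.34). In hippocampus B26 was the highest exenatide-treated mouse for homeostatic microglia (669 CPM against 458 to 538), border macrophages (80.6 against 26.7 to 41.6) and meninges and fibroblasts (289 against 46.2 to 136). In ST hippocampus E13 had 748 CPM of homeostatic microglia genes against 589 to 637, and 3.93 CPM of T and NK cells genes against 0.56 to 0.94. The part of these markers in the members' values was not tested. Region markers matched the labels in every brain library examined, with hypothalamus markers at 899 to 3604 CPM in hypothalamus and at most 26.2 CPM elsewhere.

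Set against the homeostatic microglia genes of the same library, Clec7a, Itgax and Cst7 stood higher in aged mice by most measures, but few values passed. The measure was log2 CPM of the gene minus the mean log2 CPM of the 12 homeostatic genes, tested by a two-sided exact permutation test with conditions permuted within batch. Of 90 such tests over genes, regions and comparisons, 23 had p under 0.05 and 1 passed after Benjamini-Hochberg adjustment. That was Itgax in LT hypothalamus, higher by 1.66 in aged mice (exact permutation p = 3.40e-04, adjusted p = 0.0306, 8 of 9 aged libraries above every young one). Clec7a was higher in aged LT mice by 0.91 in hypothalamus (adjusted p = 0.166, exact permutation), 1.40 in hippocampus (adjusted p = 0.0779) and 1.08 in frontal cortex (adjusted p = 0.0804). In ST, Clec7a was higher by 2.12 in hippocampus and 1.88 in frontal cortex, and Itgax by 1.42 and 1.12, in 5 of 5 aged libraries each. Those 4 tests gave p = 0.00794, the smallest that 5 against 5 mice can give, and adjusted p = 0.0779 (exact permutation). Relative to the homeostatic genes Axl differed by -0.249 in ST hippocampus (exact permutation p = 0.00794, adjusted p = 0.0779), where those genes themselves were 0.367 higher in aged mice.

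Whether the age difference of a gene differed between regions of the same mice was tested in 24 exact permutation tests. None passed after adjustment, and 1 had p under 0.05: the Axl difference was 0.153 larger in LT hippocampus than in frontal cortex (exact permutation p = 0.0147, adjusted p = 0.352). The call of Itgax in hypothalamus but not in hippocampus therefore does not show that the regions differ, the difference of the Itgax effects being 0.74 (exact permutation adjusted p = 0.638). Mice with a high level in one region tended to have one in another for Clec7a, over deviations from the mean of group and batch. Its Pearson r was 0.48 between hypothalamus and hippocampus (25 mice, permutation p = 0.0440, Spearman 0.32, permutation p = 0.152), 0.52 between hypothalamus and frontal cortex (24 mice, permutation p = 0.0154, Spearman 0.37, permutation p = 0.0855) and 0.51 between hippocampus and frontal cortex (24 mice, permutation p = 0.0504, Spearman 0.59, permutation p = 0.0136). Without the 2 mice farthest from the median r was 0.43, 0.49 and 0.60. Over the 18 relations none passed after adjustment, and these 3 had adjusted permutation p = 0.151. This was not particular to Clec7a: Pearson r over the same pairs of regions, in the same order, was 0.56, 0.32 and 0.45 for Itgax, -0.11, -0.11 and 0.58 for Ch25h, and 0.42, -0.09 and -0.27 for Lgals3, while for Cst7 it was 0.25 to 0.35 and for Axl 0.05 to 0.20.

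Long-term exenatide left the 5 genes tested without a call in the 3 brain regions by edgeR and by DESeq2. Cst7 did not pass the filter on low counts. In hippocampus Cst7 read 0.0747 to 0.794 CPM in aged controls and 0.0689 to 1.80 CPM in treated mice other than B26 (4.93 CPM). In these comparisons 6.2% of genes passed in hypothalamus, 0.0% in hippocampus and 0.0961% in frontal cortex. An unadjusted p under 0.05 was found in 4 of the 15 member tests, all with higher values in treated mice. Over all genes 8163 of 53296 tests in the 3 regions had one. Ch25h came closest: it read 0.218 to 1.38 CPM (median 0.507) in aged controls and 0.289 to 3.3 CPM (median 1.07) in treated mice in hypothalamus. The ranges overlapped, with 3 of 8 treated mice above every control, and the difference was 1.27 ± 0.42 (unadjusted p = 0.00567, adjusted p = 0.0641, edgeR). In hippocampus Ch25h read 0.379 to 0.908 CPM (median 0.572) in controls and 0.362 to 2.17 CPM (median 1.25) in treated mice, a difference of 0.95 ± 0.36 (adjusted p = 0.574, edgeR). In frontal cortex it read 0.286 to 0.854 CPM (median 0.591) and 0.276 to 2.57 CPM (median 0.885), a difference of 0.79 ± 0.39 (adjusted p = 0.418, edgeR). The difference of Ch25h in hypothalamus was 1.09 within batch 3 (adjusted p = 0.580) and 1.38 within batch 1, where it passed (adjusted p = 0.0419, edgeR).

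Clec7a in exenatide-treated LT mice read 0.513 to 5.56 CPM (median 2.31) in hypothalamus, 0.276 to 11.2 CPM (median 1.74) in hippocampus and 0.529 to 2.15 CPM (median 1.19) in frontal cortex. The differences from aged controls were 0.85 ± 0.50, 1.47 ± 0.59 and 0.65 ± 0.34, with adjusted p = 0.277, 0.586 and 0.456 (edgeR). B19, a control, and B26, a treated mouse, both weighed on these values. Without B19 alone, Ch25h (1.57, adjusted p = 0.0384), Clec7a (1.51, adjusted p = 0.0350) and Itgax (1.10, adjusted p = 0.0457) passed in hypothalamus, and without both B19 and B26 none did, with Clec7a at 1.28 (adjusted p = 0.0789, edgeR). Within batch 3 the hypothalamus difference of Clec7a was 0.04, and within batch 1 it was 1.64. Genes of the list blood monocytes and neutrophils were at higher levels in the treated mice, with medians of 1.89 and 6.98 CPM in hypothalamus and 2.01 and 8.18 CPM in frontal cortex for aged controls and treated mice, and none of them passed the test. Their part in the members' values was not tested. The other differences were 0.48, 1.40 and 0.17 for Itgax, -0.10, 0.62 and 0.03 for Lgals3, and -0.07, 0.11 and 0.07 for Axl in hypothalamus, hippocampus and frontal cortex.

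Exenatide-treated aged LT mice were also compared with the young controls, a comparison that shares its groups with those above. Of the 15 member tests 5 passed, 2 in hypothalamus (1.24% of genes called), 1 in hippocampus (0.693%) and 2 in frontal cortex (3.32%). Clec7a rose by 2.11 ± 0.54 in hypothalamus (adjusted p = 0.0478), 2.83 ± 0.65 in hippocampus (adjusted p = 0.0387) and 1.63 ± 0.37 in frontal cortex (adjusted p = 0.0139, edgeR). Itgax rose by 2.69 ± 0.52 in hypothalamus, where all 8 treated mice lay above every young one (adjusted p = 0.00511), and by 1.28 ± 0.31 in frontal cortex (adjusted p = 0.0189, edgeR). The hypothalamus call of Clec7a was lost when any of 18 mice was left out and the hippocampus call when any of 10 was, and without both B19 and B26 the hippocampus rise was 1.94 (adjusted p = 0.1001). Ch25h differed by 1.69 ± 0.45 in hypothalamus (adjusted p = 0.0591, edgeR), with 6 of 8 treated mice above all young ones. In the same comparison 3 of 4 tested genes of the list blood monocytes and neutrophils rose in hypothalamus, 2 of 4 in hippocampus and 3 of 4 in frontal cortex, and their part in the rises of Clec7a and Itgax was not tested.

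Short-term exenatide and rapamycin gave no call for any of the 6 genes in aged ST mice by edgeR or DESeq2. Exenatide called 28.6% of genes in hippocampus and 0.0274% in frontal cortex, and rapamycin 27.6% and 18.2%. Median library totals in hippocampus were 38788400 counts with exenatide and 33493200 with rapamycin, against 24063300 in aged controls. Clec7a in hippocampus read 1.45, 1.85, 2.39, 2.52 and 2.7 CPM with exenatide and 1.06, 1.16, 1.57, 2.36 and 2.86 CPM with rapamycin, against 1.64 to 6.44 CPM in aged controls. Both treated groups overlapped the controls, with differences of -0.43 (95% interval -1.20 to 0.34, adjusted p = 0.448) and -0.73 (-1.52 to 0.06, adjusted p = 0.185, edgeR). In frontal cortex Clec7a read 0.934, 0.991, 1.09, 1.36 and 1.46 CPM with exenatide and 0.839, 1.05, 1.21, 1.24 and 1.3 CPM with rapamycin, against 1.12 to 2.62 CPM in aged controls. The differences were -0.55 (-1.10 to 0.01, adjusted p = 0.336) and -0.60 (-1.16 to -0.05, unadjusted p = 0.0408, adjusted p = 0.130, edgeR), the latter being the single unadjusted p under 0.05 among the 24 tests. All 10 exenatide-treated and all 10 rapamycin-treated libraries of the 2 regions still lay above the highest young control of their region.

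Cst7 in hippocampus read 0.406 to 0.818 CPM with exenatide and 0.281 to 1.12 CPM with rapamycin, and Itgax 0.787 to 2.08 CPM and 0.618 to 1.49 CPM. Their differences from aged controls were -0.66 and -0.34 with exenatide and -0.78 and -0.76 with rapamycin, and none passed. Lgals3 in hippocampus read 1.12, 1.53, 1.77, 2.13 and 2.14 CPM with exenatide, against 0.527 to 1.78 CPM in aged controls and 0.805 to 1.33 CPM with rapamycin. It differed by 0.68 ± 0.34 from controls (adjusted p = 0.142) and by 0.75 ± 0.33 between the drugs (unadjusted p = 0.0324, adjusted p = 0.364, edgeR). The direct comparison of exenatide with rapamycin called 0.71% of genes in hippocampus and 0.856% in frontal cortex and none of the 6. Clec7a differed between the drugs by 0.30 (-0.48 to 1.08) in hippocampus and 0.06 (-0.52 to 0.63) in frontal cortex, intervals that leave room for differences in either direction.

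With rapamycin many homeostatic microglia genes fell. That the 6 genes did not pass does not show that they moved differently. Of 24 homeostatic tests over both regions 15 fell, 10 of them in hippocampus, where the median difference was -0.35 against -0.00 over all genes. Their summed level in hippocampus was 424 to 513 CPM with rapamycin and 589 to 748 CPM in aged controls, without overlap. The mean log2 CPM of the homeostatic genes differed by -0.362 in hippocampus and -0.184 in frontal cortex. Axl itself passed in neither region, and in hippocampus it read 54.8 to 59.7 CPM with rapamycin and 50.5 to 61.0 CPM in aged controls. Relative to the homeostatic genes Axl was higher with rapamycin by 0.357 in hippocampus and 0.315 in frontal cortex, in 5 of 5 mice each (exact permutation p = 0.00794, adjusted p = 0.0779). By the same measure Clec7a, Cst7 and Itgax differed by -0.239, -0.245 and -0.175 in hippocampus. In frontal cortex they differed by -0.347, 0.591 and -0.0544, and none of these values passed.

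The hypothalamic GLP-1R knockdown gave no call among the 6 genes in aged ST mice, where 4.98% of genes passed in hippocampus and 6.32% in frontal cortex. Clec7a read 1.29, 1.91, 2, 2.8 and 5.46 CPM in hippocampus and 0.573, 0.821, 1.05, 1.13 and 2.01 CPM in frontal cortex of knockdown controls. The groups overlapped, and the differences were -0.13 ± 0.40 in hippocampus and -0.61 ± 0.29 in frontal cortex (unadjusted p = 0.0406, adjusted p = 0.167, edgeR). Exenatide within the knockdown called 31.3% of genes in hippocampus and 0.0% in frontal cortex, and again none of the 6, none at an unadjusted p under 0.05. Clec7a there read 0.471, 1.3, 1.59, 1.67 and 2.69 CPM in hippocampus and 1.03, 1.15, 1.24, 1.81 and 2.51 CPM in frontal cortex. The test of whether the exenatide effect differed with the knockdown called 0.043% of genes in hippocampus and 0.0% in frontal cortex. Its smallest unadjusted p for the 6 genes was that of Clec7a in frontal cortex, where the exenatide difference was 1.01 ± 0.40 higher within the knockdown (unadjusted p = 0.0171, adjusted p = 0.227, edgeR).

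In young adults exenatide gave no call for these genes or for any gene in the brain, with 0.0% called in each of hypothalamus, hippocampus and frontal cortex. Clec7a was low in all of these libraries, at 0.0995 to 0.925 CPM in control and 0.22 to 1.92 CPM in treated hypothalamus, and was tested only there, with a difference of 0.31 ± 0.45. Cst7 and Itgax passed the filter on low counts in no YA brain region. Ch25h in hypothalamus read 0.105 to 0.502 CPM (median 0.302) in controls and 0.152 to 0.88 CPM (median 0.7) in treated mice. Of the 8 treated mice 5 lay above every control, and the difference was 0.98 ± 0.33 (unadjusted p = 0.00879, adjusted p = 0.905, edgeR). Axl in frontal cortex differed by -0.09 ± 0.04 (unadjusted p = 0.0344, adjusted p = 0.365, edgeR), and these were 2 of the 10 tests that could be run. Unadjusted p was under 0.05 in these 2, and in 3058 of 50888 tests over all genes.

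**Figure D3:**
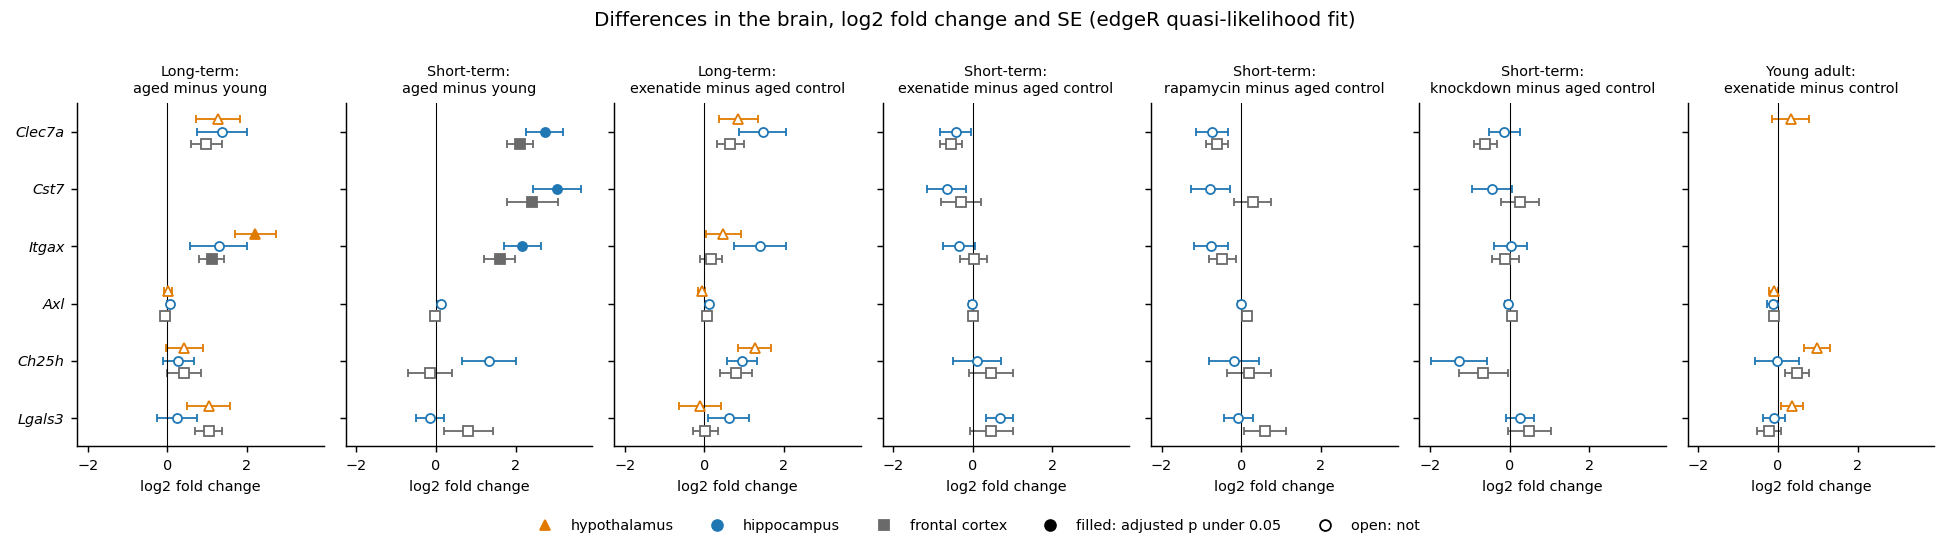
Log2 fold changes (points) and SE (bars) of the 6 genes in 7 brain comparisons, with marker shape for the region and filled markers for adjusted p under 0.05. The filled markers are Clec7a, Cst7 and Itgax in the ST age comparison and Itgax in hypothalamus and frontal cortex in the LT age comparison; genes that did not pass the filter on low counts have no marker.

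The other genes of the pathways around the members were examined with the age comparisons. Over all genes and brain regions, 1139 of 53296 tests rose in LT and 2988 of 36813 in ST, most of the ST rises in hippocampus (2204 of 18586 there), and shares near these say nothing particular of a list. Of the 12 homeostatic microglia genes, 10 rose in ST hippocampus and none in ST frontal cortex, among them the transcription factor Sall1 (0.42). In LT 2 of 36 tests rose, both in hypothalamus: Selplg, the ligand of P-selectin, by 0.50 and Tmem119 by 0.46. Among other disease-associated microglia genes, 8 of 68 tests rose in LT, for example the lysozyme gene Lyz2 in frontal cortex by 0.73 and the chemokine gene Ccl6 in hypothalamus by 0.86. In ST 8 of 45 rose and 1 fell, with the lysosomal membrane protein gene Cd68 higher by 0.55 and the lipid carrier gene Apoe lower (log2 difference -0.62) in hippocampus. Interferon-responsive genes rose in 3 of 36 LT tests, such as Bst2 by 1.15 and Irf7 by 1.03 in hypothalamus, and in 7 of 24 ST tests, such as Ifit3 by 1.21 in hippocampus.

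Partners of single members moved in few tests, in shares to be read against the same counts over all genes. Of the genes that carry the Clec7a signal, 3 of 30 tests rose in LT and 3 of 20 in ST, and the shared receptor chain Fcer1g rose in frontal cortex of both (0.39 and 0.45). Among beta 2 integrin genes 2 of 17 LT tests and 2 of 11 ST tests rose. Itgb2, the partner of Itgax, rose by 0.76 in LT hypothalamus and by 0.69 in ST hippocampus. Of the cathepsins and related proteases that cystatin F inhibits, 2 of 18 LT tests rose, and 2 of 12 ST tests rose and 1 fell. Ctss rose in frontal cortex by 0.46 in LT and 0.39 in ST, and Ctsl differed by -0.35 in ST hippocampus. Of the list of TAM receptors and ligands, 3 of 18 LT tests rose, and 2 of 12 ST tests rose and 1 fell. Axl's relative Mertk rose by 0.64 in LT hypothalamus, and the ligand gene Pros1 by 0.62 in ST hippocampus. Of the oxysterol genes around Ch25h, 0 of 33 LT tests passed, and 5 of 22 ST tests rose, among them Gpr183, the receptor for a derivative of its product (0.59 in hippocampus), and the cholesterol exporter Abca1 (0.46). Of the galectins, 2 of 12 ST tests rose, among them Lgals9 by 0.58 in hippocampus, and 0 of 18 LT tests passed.

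Clec7a, Itgax and Lgals3 varied together across LT mice more than with Axl or Ch25h, and Cst7, which did not pass the filter in LT, could not be included. Likeness was measured as Pearson r of log2 CPM over the 74 LT brain libraries, as deviations from the mean of group and batch, averaged over the 3 regions, and libraries of a mouse share their source. Among 16784 genes Lgals3 ranked 13th for Clec7a (r = 0.65) and Itgax 40th (r = 0.60), and Lgals3 ranked 9th for Itgax (r = 0.66), while for Clec7a Axl ranked 2512th (r = 0.20) and Ch25h 7961st (r = 0.01). In the 60 ST libraries Itgax ranked 5th for Clec7a (r = 0.71), Lgals3 43rd (r = 0.56) and Cst7 663rd (r = 0.36), with Axl at r = 0.13 and Ch25h at r = 0.08. In YA, where Clec7a was tested in hypothalamus alone (16 libraries), r with Clec7a was 0.46 for Ch25h, 0.56 for Lgals3 and -0.18 for Axl. Axl, one of the genes named for activated microglia, thus varied little with Clec7a in each cohort, and Ch25h varied little with it in LT and ST. The YA values rest on 1 region, where mouse A84 was highest for Clec7a (1.92 CPM), Ch25h (0.88) and Lgals3 (6.16). What A84 contributes, and whether the cohorts differ, was not tested.

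Among the 10 genes most like Clec7a in LT were Slfn8 (r = 0.78), Cxcl10 (0.73), Ly9 (0.72), Gbp2 (0.69), C4b (0.69), Irgm1 (0.68), Parp9 (0.66), Cd68 (0.66) and Parp14 (0.66). Several of them, such as Cxcl10, Gbp2 and Irgm1, are known as interferon-induced genes, and C4b encodes a complement component. In ST libraries C4b ranked 2nd for Clec7a (r = 0.75), and the other 8 named ranked between 92nd and 2558th. The 3 genes most like Itgax were Cxcl16 (0.74), Cybb (0.73) and Asap3 (0.70), and among those most like Axl were Lamb2 (0.79) and Itpr3 (0.75). For Ch25h they included Lcn2 (0.63) and Galnt15 (0.58), and for Lgals3 they were Lgals3bp (0.71), Vim (0.67) and Tgfbi (0.67). What B19 and B26 contribute to these values was not tested.

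Per kilobase of exon, Axl was by far the highest of the 6 in the brain. In young LT hypothalamus it stood at 12.7 CPM per kilobase, followed by Lgals3 at 0.561, Ch25h at 0.288, Clec7a at 0.215, Cst7 at 0.0772 and Itgax at 0.0448. The exon lengths behind these values were taken from GRCm38 gene models, 2638 bases for Clec7a and 5033 for Axl.

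Outside the brain the same genes reached levels far above those in brain. In LT aged controls the median level of Clec7a was 263 CPM in circulating white blood cells (WBCs), 226 in adipose tissue, 61.3 in lung, 52.5 in spleen, 12.02 in colon, 8.69 in liver, 5.65 in heart, 5.09 in kidney and 1.19 in skeletal muscle, against 1.10 in hippocampus, 0.898 in hypothalamus and 0.795 in frontal cortex. The ranges of neighbours in that order overlapped except between adipose tissue and lung and between spleen and colon. Itgax was highest in spleen (160 CPM), WBCs (80.5) and lung (66.6), and Cst7 in WBCs (23.2) and spleen (22.4). Lgals3 was highest in colon (1160) and adipose tissue (304), and Ch25h in lung (7.18), with a median of 0 in WBCs. Axl was highest in spleen (423) and adipose tissue (346) and lowest in WBCs (11.2), below its 64.9 CPM in hypothalamus.

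**Figure D4:**
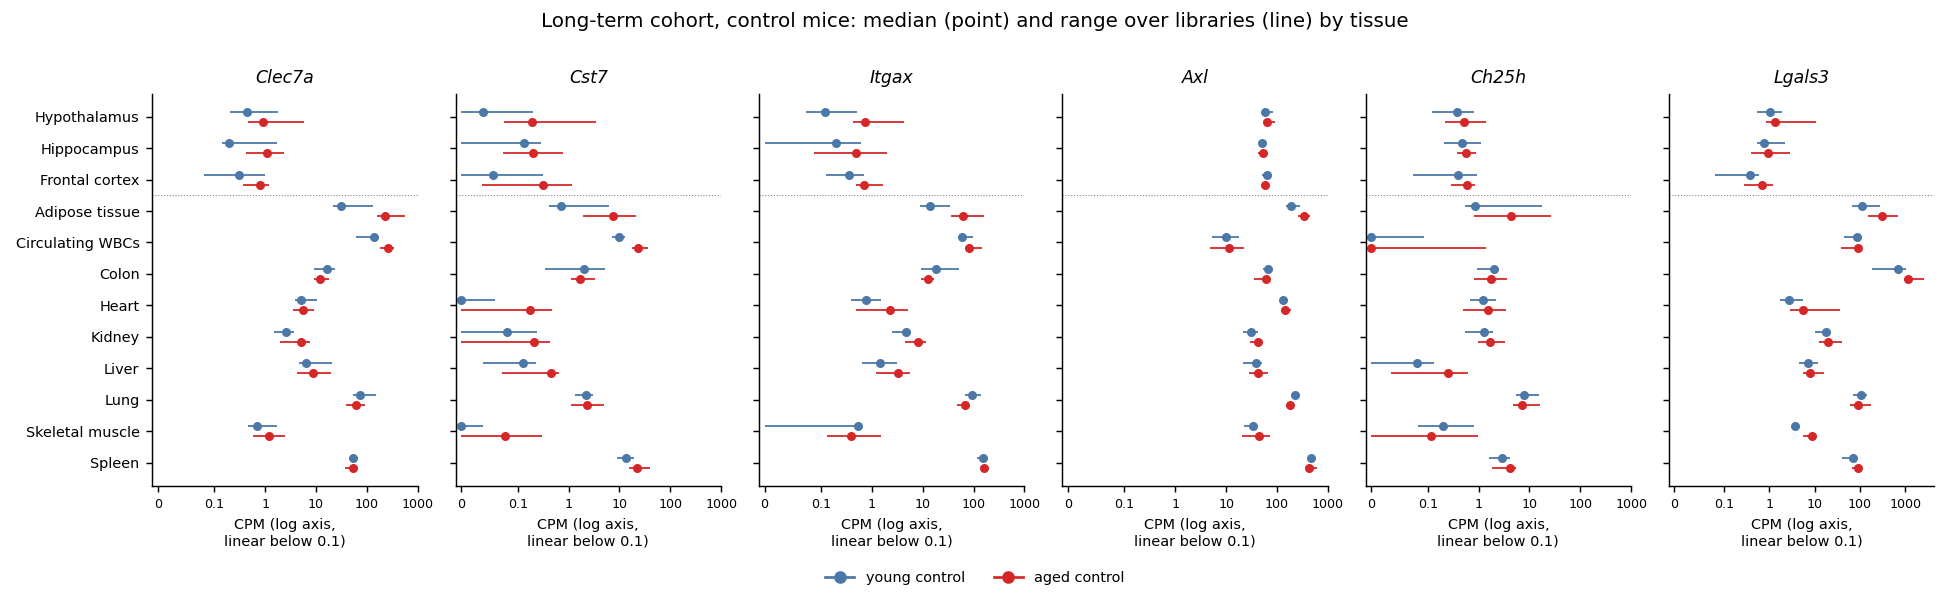
Median CPM (points) and range over libraries (lines) of the 6 genes in 12 tissues of LT young and aged controls, on a log axis that is linear below 0.1, brain regions above the dotted line. Clec7a, Itgax and Lgals3 lie lower in the brain regions than in most other tissues. Clec7a is at 263 CPM in aged WBCs and 0.795 in aged frontal cortex. Cst7 in brain overlaps its ranges in liver, kidney, heart and skeletal muscle, and Axl in brain lies within the range of other tissues.

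Of 54 member tests of age outside the brain in LT, 48 passed the filter on low counts, 16 of these rose and 2 fell, where 16.9% of gene tests passed. The clearest were in adipose tissue, where 50.8% of 16846 genes passed. Clec7a read 21.2 to 131 CPM in young and 155 to 568.1 CPM in aged mice there. The groups did not overlap, and it rose by 2.29 ± 0.41 (adjusted p = 1.57e-04, edgeR). It was higher by 2.34 within batch 3 (adjusted p = 0.0869) and by 2.26 within batches 1 and 2 (adjusted p = 0.00204). Itgax rose by 1.83, Cst7 by 2.01, Lgals3 by 1.30 and Axl by 0.84 in the same tissue. In WBCs Clec7a rose by 1.12 and Cst7 by 1.25, in kidney Clec7a by 0.89 and Itgax by 0.82, and in heart Itgax by 1.46 and Lgals3 by 1.49. The 2 falls were those of Itgax in colon (-0.94) and Axl in lung (-0.32). Of all genes 27.7% passed in WBCs, 7.45% in kidney, 17.9% in heart, 14.4% in colon and 6.43% in lung. The kidney call of Clec7a was lost without any of A51, A53 or B41, the colon call of Itgax without A52 or A53, and the others named here kept their calls when each mouse was left out. In ST, 26 of 30 tests passed the filter, 5 of these rose with age and none fell, where 12.5% of gene tests passed: Clec7a (1.21), Itgax (1.61), Lgals3 (1.70) and Axl (0.42) in heart and Lgals3 (1.83) in WBCs. Of all genes 24.6% passed in ST heart and 23.6% in ST WBCs. The heart calls of Axl and Itgax were lost when 1 of several mice was left out. Within batch 3 of LT alone 3 age tests outside the brain passed, against 18 over all batches, and within batches 1 and 2 alone 9 passed. WBCs have no LT library in batch 3 and liver none in batches 1 and 2. The 18 thus include calls that a fit within batches could not test. Clec7a in ST adipose tissue differed by 0.72 ± 0.69 and did not pass.

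Treatments gave few calls outside the brain. Long-term exenatide gave 3 rises and 1 fall among 48 tests past the filter, where 5.95% of gene tests passed: Axl (0.53) and Ch25h (0.95) rose in kidney, Itgax (1.28) rose in lung, and Itgax fell in adipose tissue (-0.85). Of all genes 14.2% passed in kidney, 0.609% in lung and 18.8% in adipose tissue. Of these 4 member calls, that of Ch25h was kept when each mouse was left out, that of Axl was lost without B30, and each Itgax call was lost without any of several mice. Within batch 3 there were 0 calls, and within batches 1 and 2 there were 3, with Ch25h in kidney higher by 0.79 and 1.06. In ST the drug and knockdown comparisons gave 1 rise and 1 fall among 104 tests, where 4.05% of gene tests passed: Cst7 was 1.65 higher with the knockdown and Lgals3 differed by -1.21 with rapamycin, both in WBCs, and both calls were lost when any of 17 or more mice was left out. In WBCs 7.97% of genes passed with the knockdown and 12.8% with rapamycin. In YA exenatide called none of 26, of which 3 had an unadjusted p under 0.05, where 1.06% of gene tests passed. Over all genes 8795 of 75519 tests had an unadjusted p under 0.05.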

How the data were processed

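Poly(A) RNA of mouse tissues was sequenced after library preparation with a kit that does not mark strand, per the labels' protocols. The authors deposited whole-number gene counts for LT. For ST and YA the authors deposited estimated counts, of which 7.37% and 7.21% of nonzero values were not whole, and these were rounded before testing. The genome build GRCm39 and FastQC 0.11.9 are named in the submitters' processing notes, while the aligner, the counter and the annotation are not given in the sources used here. Reads shared with overlapping or antisense genes could not be told apart.

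Each cohort and tissue was fitted separately over all genes and conditions with edgeR 4.0.16 in R 4.3.3 (TMM scaling, filterByExpr, robust glmQLFit and glmQLFTest, a batch term in LT), with Benjamini-Hochberg adjustment over the genes tested and a threshold of 0.05. A standard error is the log2 fold change divided by the square root of F, and intervals are 1.96 standard errors wide on each side. CPM were scaled by TMM within a tissue. Libraries count as replicates because the labels name separate animals. Alternatives were DESeq2 1.42.0 and its size factors, no filter on low counts, the compared conditions alone, no batch term, single batches and leaving out each mouse, and, chosen after seeing the data, leaving out B19 with B26 or libraries high in choroid plexus genes. Exact and 100000-resample permutation tests used Python 3.11.15 with scipy 1.17.1, on log2 CPM with a prior count of 2.

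All 6 genes are covered in each brain comparison, but in the drug and knockdown comparisons values are printed for only some of them. Of each companion list described, up to 4 genes with the smallest adjusted p over the regions are named, with any partner of a member. The 10 genes most like Clec7a and the 3 most like each other member are named by Pearson's r of log2 CPM within condition and batch, averaged over LT regions; a few genes that this rule names are not reported here. The members and lists were chosen with earlier results of these data known. On data simulated from the LT age comparison in hippocampus (17601 genes), the fit recovered 90% of 2-fold and 99% of 4-fold changes. The changed genes were drawn at random from all levels, and 5.03% of the calls were false. The simulated libraries held no batch shift and no mice set apart across genes, as B19 and B26 were. These rates may therefore not hold for the measured libraries. No such rate was obtained for genes as low in counts as the members other than Axl. Counts of the 6 genes were low in brain, except for Axl, and their number limits the precision.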

Additional observations from a re-analysis of the deposited data

Results flagged for a closer look

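In 32 of the 162 groups of 4 to 10 brain libraries, the highest or lowest value of a member lay far from the others by Dixon's 95% criterion. Chance meets it in about 1 in 20 groups of normally distributed values. These are CPM, mostly of low counts, for which that rate was not established. Values of different genes in a library are not independent.

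Aged control B19 of LT was the highest of its group in 9 of these groups. In hypothalamus it read 5.85 CPM of Clec7a, 3.55 of Cst7, 4.36 of Itgax, 89.8 of Axl, 1.38 of Ch25h and 10.96 of Lgals3, where the other 8 aged controls reached at most 1.59 CPM of Clec7a and 2.08 of Lgals3. In hippocampus it read 0.794 CPM of Cst7 and 2.005 of Itgax, and in frontal cortex 1.17 of Cst7. Exenatide-treated B26 of LT was the highest of its group with 11.2 CPM of Clec7a and 4.93 of Cst7 in hippocampus and 6.58 of Lgals3 in hypothalamus. Among young LT controls, A53 read 1.71 CPM of Clec7a and A52 1.14 of Ch25h in hippocampus, and A57 read 1.75 of Clec7a in hypothalamus, each the highest of its group.

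In ST hippocampus, aged control E13 was the highest with 6.44 CPM of Clec7a, 2.35 of Cst7 and 3.93 of Itgax. Aged control E30 was the highest with 2.52 CPM of Ch25h, and E29 the lowest with 50.5 CPM of Axl. Young control A46 read 0.790 CPM of Ch25h in hippocampus and 1.63 in frontal cortex, and young control A47 read 2.87 CPM of Lgals3 in hippocampus. These last mice are those with over 1000 summed CPM of choroid plexus genes there. Young control A43 read 64.9 CPM of Axl in frontal cortex. Rapamycin-treated E10 had the highest Itgax of its group in frontal cortex (1.37 CPM) and the lowest Axl in hippocampus (54.8 CPM). Knockdown control E20 had the highest Cst7 in hippocampus (1.959 CPM) and the highest Lgals3 in frontal cortex (1.18 CPM).

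In YA hypothalamus, exenatide-treated A84 was the highest of its group with 1.92 CPM of Clec7a, 0.440 of Cst7 and 6.16 of Lgals3. The same library held 14.9 CPM of blood monocytes and neutrophils genes against 0.55 to 3.06 in the other 7, and 12.1 CPM of T and NK cells genes against 1.10 to 3.69. In YA hippocampus, control A87 had the highest Axl (67.3 CPM).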

How the results depend on the processing

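The 6 calls of the ST age comparison in brain stayed within 5 to 7 when each mouse was left out, and no alternative moved them by over 1.5 times. The 2 LT age calls in brain were 0 within batch 3, 0 within batches 1 and 2, 1 without B19 and B26 (chosen after seeing the data) and 0 to 4 when each mouse was left out: 0 without A53, 4 without A57, and 1 without any of A51, A55, A56, B19 or B24. The 0 LT exenatide calls in brain were 1 within batches 1 and 2 (Ch25h in hypothalamus) and 0 to 3 with single mice left out, 3 of them without B19. The 5 calls of treated aged against young LT mice were 9 with DESeq2, 1 within batch 3, 1 within batches 1 and 2, 3 without libraries high in choroid plexus genes (chosen after seeing the data), and 3 to 6 with single mice left out. Exenatide within the knockdown gave 0 to 1 (1 without E8), and the other ST and YA brain comparisons of drugs and knockdown gave 0 throughout. Outside the brain, the 18 LT age calls were 3 within batch 3, 9 within batches 1 and 2, and 14 to 19 with single mice left out. The count within batch 3 leaves out WBCs and that within batches 1 and 2 leaves out liver, which have no libraries there. The 4 LT exenatide calls were 8 with DESeq2, 0 within batch 3, and 2 to 6 with single mice left out. The 5 ST age calls ran from 3 (without E23 or A42) to 6. The 2 ST drug and knockdown calls were 1 with DESeq2 size factors, 0 without a filter, 5 with DESeq2, 0 with only the conditions compared, and 0 to 3 with single mice left out. The 0 YA calls outside the brain ran from 0 to 1 (without A41). Relative to homeostatic microglia genes, the 1 passing test was 2 with the less state-dependent reference genes and 0 to 2 with single mice left out (2 without A53, 0 without any of A56, B16, B19, B37 or B41). The 0 region differences ran to 1 without A53, and the 0 correlations to 1 without the 2 farthest mice. Within a batch fewer mice enter the fit; the cause of the other moves was not tested.

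Comparisons between conditions could not be paired because the groups compared hold different animals, while those between regions were made within mice. Depth limits the members other than Axl, whose levels near 1 CPM rest on few reads per library: in ST, Clec7a was counted 5 to 30 times in young and 29 to 159 times in aged control brain libraries, and Cst7 0 to 7 times in young ones.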

Other observations

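In aged ST mice given rapamycin, some genes of the lists around the 6 genes fell, in shares to be read against all genes, of which 4389 of 36813 tests fell and 4042 rose over both brain regions. Of the interferon-responsive microglia tests over both brain regions, 5 of 24 fell and 0 rose, among them Rsad2, an antiviral enzyme gene (log2 difference -1.12 in hippocampus). Of the beta 2 integrin subunits tests 4 of 11 fell, including Itgb2, the partner chain of Itgax (-0.39), and Itgam (-0.31) in hippocampus. Of the other disease-associated microglia genes tests 6 of 45 fell and 1 rose, where 27.6% of all genes passed in hippocampus and 18.2% in frontal cortex. With short-term exenatide 4 of 24 homeostatic microglia tests fell and 1 of 24 interferon-responsive microglia tests did, where 2684 of 36813 tests of all genes fell.

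In treated aged LT mice against young controls, 9 of 36 interferon-responsive microglia tests and 10 of 68 tests of other disease-associated microglia genes rose and 0 fell, where 581 of 53296 tests of all genes rose. In the same comparison 8 of 12 tests of the list blood monocytes and neutrophils rose. In hypothalamus the antiviral genes Oasl2 and Rsad2 were each 1.14 higher on the log2 scale (adjusted p = 0.00141 and 0.00211, edgeR).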
